A study of Mus musculus with 20 samples.

Results

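Regulatory T cells (Treg) are defined by the forkhead factor Foxp3, and, like other T cells, they depend on the zinc-finger factor Bcl11b. The regions described here are Foxp3-bound regions of wild-type (WT) Treg cells at which the comparison of Foxp3 with Bcl11b did not list Bcl11b. They were still listed for Foxp3 in Treg cells without Bcl11b. Other comparisons listed Bcl11b of WT Treg cells at 313 of them (5.44%). They were chosen by their place in deposited lists of chromatin immunoprecipitation sequencing (ChIP-seq) regions: a member stands, with identical coordinates, in the Foxp3-specific list of the comparison of Foxp3 with Bcl11b in WT Treg cells, and in the common list of the comparison of Foxp3 between Bcl11b-KO and WT Treg cells. Of all WT Foxp3 regions of the first comparison 66.8% were Foxp3-only, and of the Foxp3-only regions listed as common or as specific to WT cells in the second 61.9% were common. The rule gave 5756 members among the 22081 distinct regions of the series (26.1%), or 40.4% of the 14250 WT Foxp3 regions of the first comparison. Both shares are fixed by the rule. Below they are called kept Foxp3-only regions.

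The series holds 20 libraries of C57BL/6 mice in 9 groups, made from CD4+ cells sorted from lymph nodes and spleen. The Foxp3 regions come from 2 Bcl11b-KO Treg libraries (CD4+YFP+ cells of mice with floxed Bcl11b, Bcl11b f/f, and the allele Foxp3-IRES-YFP-Cre) and 2 WT Treg libraries (CD4+YFP+ cells of mice with the allele Foxp3-IRES-YFP-Cre). Both genotypes carry the YFP-Cre allele of the Foxp3 locus, so the sort marks cells that express Foxp3, and Bcl11b is deleted in the cells that turn this allele on. Bcl11b itself was precipitated in 3 libraries of WT Treg cells, in 2 of KIKO cells (CD4+GFP+ cells of Foxp3-GFPKO mice, which are Treg cells devoid of Foxp3) and in 3 of WT cells labelled Tn, whose sort label is that of the Treg cells. The other 8 libraries were input DNA, namely 2 of Bcl11b-KO Treg, 3 of WT Treg, 1 of KIKO and 2 of Tn cells. The labels give no ages and do not say whether replicates came from separate animals.

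Transcription factors bind at 2 broad kinds of site. Promoters lie at gene starts, are often rich in CpG, and carry GC boxes (bound by the SP and KLF families), CCAAT boxes (bound by NFY) and ETS sites. Enhancers lie inside or between genes, often far from a start, and carry the sites of cell-type-specific factors. In Treg cells Foxp3 acts with partner factors, many of them already bound in the precursor cell, to raise genes of suppressive function and to hold down genes of effector T cells.

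The lists hold positions only. There is no score, read count or value per replicate, so the depth behind a region is unknown, each group is 1 list, and every interval and p-value below covers the counting of regions and not the spread between mice. Where a region was listed in both sets it is called common; whether that means a peak called in each set is not given in the sources used here. All coordinates are in mm10.

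Many kept Foxp3-only regions lay across gene starts, and the letters beneath them were read from the 300-base start windows of RefSeq (GRCm38.p6), which run from 250 bases before to 50 bases after a start. The 4 sequences first shown are the 250 bases before starts under kept Foxp3-only regions. They were chosen after their letters were seen, because they carry GC or CCAAT letters, which were more frequent in these windows than in those shared with Bcl11b. These letters were not more frequent than under lost Foxp3-only regions, as given below. Entpd1 encodes CD39, an ectonucleotidase of Treg cells, Srsf10 encodes a splicing factor, Suz12 encodes a subunit of the Polycomb complex PRC2, and Tnrc6b encodes a partner of Argonaute in microRNA silencing. Capitals mark GGGCGGG (GC box), CCAAT or CCGGAAG (ETS core), on the strand of the gene or as the reverse complement.
Entpd1, chr19:40612116-40612365, plus strand: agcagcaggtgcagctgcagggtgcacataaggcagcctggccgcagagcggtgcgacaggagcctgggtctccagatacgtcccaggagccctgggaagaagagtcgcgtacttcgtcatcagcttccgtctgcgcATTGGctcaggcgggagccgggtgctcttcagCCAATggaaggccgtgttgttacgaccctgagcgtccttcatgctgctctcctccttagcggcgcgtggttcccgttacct
Srsf10, chr4:135855821-135856070, plus strand: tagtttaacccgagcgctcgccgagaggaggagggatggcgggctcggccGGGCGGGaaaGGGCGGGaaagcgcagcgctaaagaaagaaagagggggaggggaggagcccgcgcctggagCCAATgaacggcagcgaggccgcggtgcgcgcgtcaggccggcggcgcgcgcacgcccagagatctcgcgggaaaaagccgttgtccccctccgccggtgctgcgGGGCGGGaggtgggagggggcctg
Suz12, chr11:79992856-79993105, plus strand: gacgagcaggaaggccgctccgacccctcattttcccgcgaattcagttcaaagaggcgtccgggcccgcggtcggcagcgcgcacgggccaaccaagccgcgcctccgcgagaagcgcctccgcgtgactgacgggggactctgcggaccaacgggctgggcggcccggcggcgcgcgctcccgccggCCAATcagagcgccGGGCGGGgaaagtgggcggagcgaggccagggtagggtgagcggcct
Tnrc6b, chr15:80711063-80711312, plus strand: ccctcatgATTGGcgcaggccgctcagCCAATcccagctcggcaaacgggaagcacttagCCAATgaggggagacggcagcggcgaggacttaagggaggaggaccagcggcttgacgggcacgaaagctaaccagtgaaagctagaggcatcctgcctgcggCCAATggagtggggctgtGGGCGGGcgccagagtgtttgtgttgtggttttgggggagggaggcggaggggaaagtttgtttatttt

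The next 2 are the 250 bases before starts that lay under Foxp3 regions shared with Bcl11b and also common to Bcl11b-KO and WT cells, shown for their ETS core. Rps21 encodes a ribosomal protein of the small subunit, and Prpf3 encodes a component of the spliceosome.
Rps21, chr2:180257199-180257448, plus strand: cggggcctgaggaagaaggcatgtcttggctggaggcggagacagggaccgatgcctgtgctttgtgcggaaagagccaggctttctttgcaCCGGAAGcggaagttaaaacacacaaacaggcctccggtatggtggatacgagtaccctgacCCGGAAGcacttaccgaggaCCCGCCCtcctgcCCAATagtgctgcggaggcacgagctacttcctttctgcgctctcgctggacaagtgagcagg
Prpf3, chr3:95855754-95856003, minus strand: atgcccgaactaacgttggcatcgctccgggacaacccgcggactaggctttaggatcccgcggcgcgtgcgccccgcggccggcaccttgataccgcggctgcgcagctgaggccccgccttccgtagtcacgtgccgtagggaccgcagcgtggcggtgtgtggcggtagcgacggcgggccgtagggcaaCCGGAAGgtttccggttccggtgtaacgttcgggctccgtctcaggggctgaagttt

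In the Entpd1 stretch 2 CCAAT boxes stood in opposite directions, and no GC box or ETS core was found. The Srsf10 stretch held 3 GC boxes and 1 CCAAT box, the Suz12 stretch 1 of each, and the Tnrc6b stretch 1 GC box and 4 CCAAT boxes. None of these 4 stretches held the ETS core, whereas Rps21 held 2, beside 1 GC box and 1 CCAAT box, and Prpf3 held 1. The member region covered 218 of the 250 bases before the Tnrc6b start and all 250 of the other 3 stretches. Entpd1 starts back to back with Tctn3, and because the centre of the member fell inside Tctn3 it is counted there below. A match is a run of letters and not a measured binding site.

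The kept Foxp3-only regions are 1 of 3 sets of WT Foxp3 regions that the same comparisons define. Of the 9512 Foxp3-only regions, 5756 were common to Bcl11b-KO and WT cells (60.5%), 3549 were specific to WT cells and are called lost (37.3%), 213 were listed as specific to Bcl11b-KO cells, and 1 stood in no list of the Bcl11b-KO comparison. Of the 4738 Foxp3 regions shared with Bcl11b, 2851 were common (60.2%) and 1262 were lost (26.6%), while 88 were listed as specific to Bcl11b-KO cells and 547 stood in no list of that comparison. Because those 547 are in the base of the 60.2%, that share and the 60.5% of Foxp3-only regions are not on a like base. Over all WT Foxp3 regions of the Bcl11b-KO comparison 68.7% were common, and over the Foxp3-only regions that stand in it 60.5% were. These shares are what the lists give, since they fix the members, and no test was made of them. The 2 comparisons share the WT Foxp3 libraries. In the tests below the members are set against the 3549 lost Foxp3-only regions and the 2851 kept regions shared with Bcl11b, without the regions that stood in 2 classes (7 members, of which 5 were also listed as lost and 2 as specific to Bcl11b-KO cells).

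Kept Foxp3-only regions lay nearer to gene starts than lost Foxp3-only regions, and farther from them than kept regions shared with Bcl11b. Of 5592 members on chromosomes with start windows, 2406 had their centre within 1 kb of the start of a protein-coding gene (43.0%, Wilson 95% interval 41.7 to 44.3), against 1189 of 3438 lost regions (34.6%, 33.0 to 36.2). The odds ratio was 1.43 (95% interval 1.31 to 1.56, Fisher's exact test, two-sided, adjusted p = 6.1e-15). Among kept regions shared with Bcl11b the share was 1436 of 2775 (51.7%, 49.9 to 53.6), so that the odds ratio of members over shared regions was 0.70 (0.64 to 0.77, exact adjusted p = 1.0e-13). The p-values were adjusted by Benjamini-Hochberg over 4 tests of position. Both differences varied with the width of the regions and turned direction at a width of 276 bp, as given below. Neighbouring regions of a gene may depend on each other, which these tests ignore. Start windows were used on every chromosome with members except 18, whose 157 members therefore enter no statement on starts.

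Among the members within 1 kb of a start, centres lay on both sides of it. The median distance of a centre from the nearest start was 2725 bp for members, 5692 bp for lost regions and 732.5 bp for shared regions. Within 250 bases of a start lay 31.0% of the members, 22.7% of lost and 41.6% of shared regions. Within 1 kb the median position of the centre was -36 bp for members, where negative is upstream, with 59.2% of centres upstream, against 61.8% upstream for lost and 61.6% for shared regions. The farther bands held the rest of the members, with 21.9% between 1 and 10 kb, 23.7% between 10 and 50 kb and 11.4% beyond 50 kb. Lost regions exceeded members in each of these 3 bands, at 26.8%, 25.1% and 13.6%, and shared regions were below members in each, at 19.8%, 18.2% and 10.3%. All 3 classes include regions at genes without a start window, which can fall in a farther band for that reason.

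**Figure D1:**
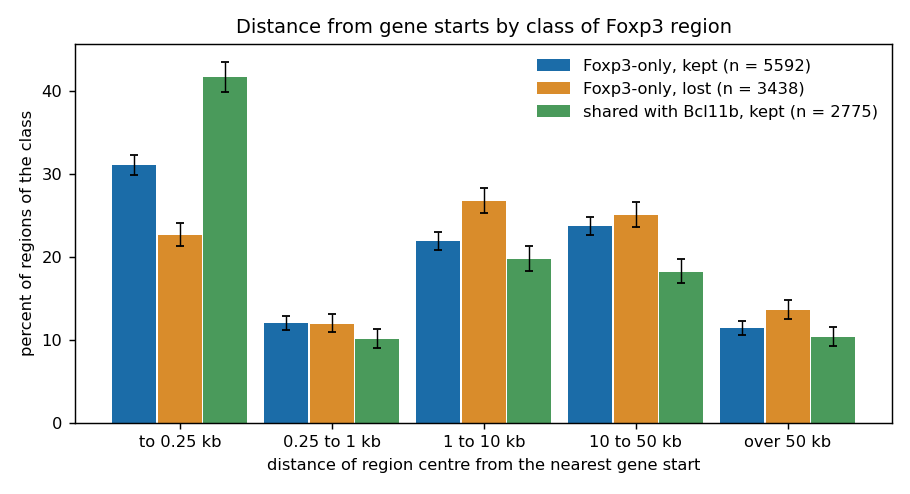
Share of each class of Foxp3 region by distance of the region's centre from the nearest protein-coding gene start, in 5 bands; bars give the percent of the class and lines the Wilson 95% interval. In the band nearest the start, kept Foxp3-only regions (31.0%) stand between lost Foxp3-only regions (22.7%) and kept regions shared with Bcl11b (41.6%).

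**Figure D2:**
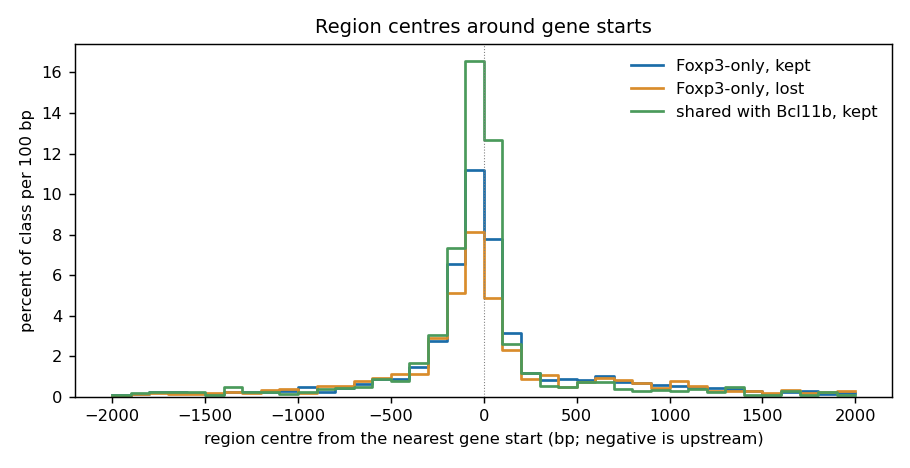
Signed distance of region centres from the nearest gene start, in steps of 100 bp, as a percent of each class, with upstream on the left. All 3 classes peak at the start, and the curve of kept Foxp3-only regions runs between that of lost and that of shared regions at the peak.

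The share of regions inside genes did not pass the test against either class. The centre lay inside a protein-coding gene for 3469 of 5749 members (60.3%) and 61.1% of lost regions, with an odds ratio of 0.97 (0.89 to 1.06, Fisher's exact test, adjusted p = 0.48). Against shared regions, of which 58.4% were inside a gene, the odds ratio was 1.08 (0.99 to 1.19, exact adjusted p = 0.11).

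The width of the regions moved with the nearness to starts. The authors' sets each have a most frequent width, which was 276 bp for Bcl11b-KO Foxp3 and 220 bp for WT Foxp3. The step that gave other widths is not given in the sources used here. Members had a median width of 276 bp and reached 712 bp. Of the members, 2186 (38.0%) were 220 bp wide, 975 (16.9%) were 276 bp and 2543 (44.2%) were wider. Among lost regions 80.8% were 220 bp wide and 13.3% were wider than 276 bp, while among shared regions 71.0% were wider than 276 bp. Width moves with the lists that chose the members, so it is given as a description, and its part in the difference in nearness to starts was tested only as follows.

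Within single widths the difference between members and lost regions was smaller or turned direction. Among regions of 220 bp, 36.9% of members lay within 1 kb of a start, against 31.7% of lost regions (odds ratio 1.26, 1.116 to 1.42, exact adjusted p = 6.5e-04, an alternative chosen after seeing the data). Among regions wider than 276 bp the shares were 47.9% of members and 46.4% of lost regions, and the difference no longer passed (odds ratio 1.06, 0.87 to 1.31, exact adjusted p = 0.77). Among regions of 276 bp the order turned, with 405 of 946 members (42.8%) and 77 of 166 lost regions (46.4%) near a start, and the difference did not pass (odds ratio 0.87, 0.61 to 1.22, exact adjusted p = 0.67, chosen after seeing the data). The difference from shared regions passed among regions of 220 bp and among those wider than 276 bp, with odds ratios of 0.71 and 0.76 (exact adjusted p = 0.013 and 3.0e-05). At 276 bp it too turned, with 42.8% of members and 159 of 391 shared regions (40.7%) near a start, and did not pass (odds ratio 1.09, 0.85 to 1.40, exact adjusted p = 0.67).

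**Figure D3:**
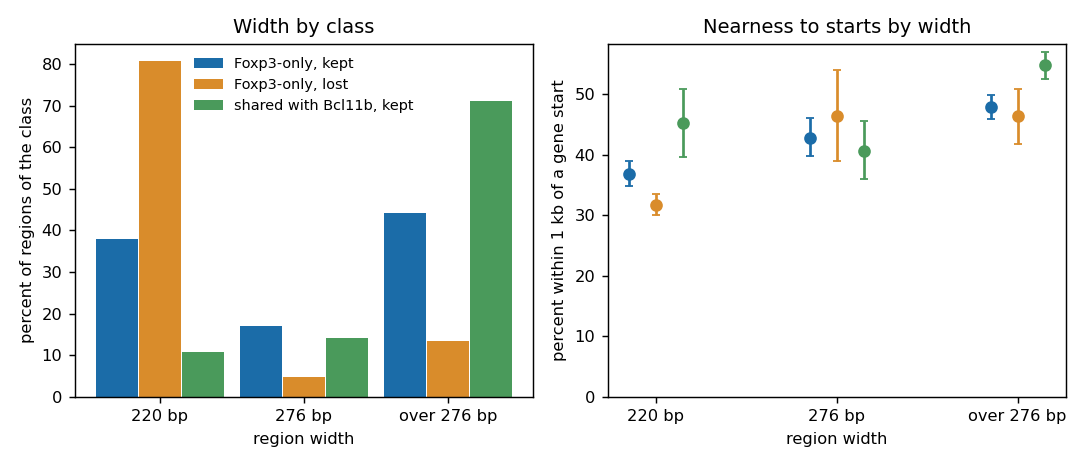
Left, the percent of each class with the most frequent width of WT Foxp3 (220 bp), that of Bcl11b-KO Foxp3 (276 bp) or a greater width; right, the percent of those regions within 1 kb of a gene start, with Wilson 95% intervals. Kept Foxp3-only regions spread over all 3 widths while 80.8% of lost regions have 220 bp, and among wider regions the members (47.9%) and the lost regions (46.3% with regions in 2 classes kept) lie side by side; at 276 bp the members (42.8%) lie below the lost regions (46.4%) and above the shared ones (40.7%).

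Base composition of the starts was close in the 3 classes, while the letters of 3 promoter motifs differed between members and shared regions. Of 21263 start windows, 2139 lay under a member by at least 1 base (10.1%), 978 under a lost region (4.60%) and 1509 under a shared region (7.10%). The median GC content was 62.0% under members, 61.8% under lost and 61.7% under shared regions, against 56.3% over all windows. The median number of CpG dinucleotides per window was 23 in each class, against 13 over all windows and 8 in windows under none of the 3 classes.

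The ETS core CCGGAAG was found less often under members than under shared regions. It stood in 470 of 2135 windows under members (22.0%) and in 569 of 1505 under shared regions (37.8%), with 11.6% over all windows. The odds ratio was 0.46 (0.40 to 0.54, Fisher's exact test, two-sided, adjusted p = 1.3e-23). The GC box and the CCAAT box went the other way. The GC box GGGCGGG stood in 53.8% of windows under members, against 42.6% under shared regions and 33.9% of all windows (odds ratio 1.57, 1.37 to 1.80, exact adjusted p = 3.3e-10). CCAAT stood in 45.1% under members, against 34.6% under shared regions and 38.2% of all windows (odds ratio 1.55, 1.35 to 1.78, exact adjusted p = 2.0e-09). The Entpd1, Srsf10, Suz12, Tnrc6b, Rps21 and Prpf3 stretches printed above are examples of these letters.

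None of the 13 motifs differed between members and lost regions after adjustment. The GC box stood in 53.8% of windows under members and 55.3% under lost regions, CCAAT in 45.0% and 47.7%, and the ETS core in 22.1% and 19.8%. By the same exact test 2 motifs had an unadjusted p under 0.05. They were the STAT letters TTCNNNGAA, in 7.4% of windows under members and 5.3% under lost regions, and the YY1 core, in 1.6% under members and 2.8% under lost regions, both with an exact adjusted p of 0.15. Among regions wider than 276 bp the E-box CAGGTG became the single call, in 16.7% of windows under members and 9.2% under lost regions (exact adjusted p = 0.027, an alternative chosen after seeing the data).

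The forkhead core TGTTTAC was rare at all of these starts. It stood in 79 of 2135 windows under members (3.70%, 2.98 to 4.59), 2.79% under shared regions and 3.00% of all windows (odds ratio 1.34 of members over shared, 0.90 to 2.01, exact adjusted p = 0.30). Against lost regions, with 3.18%, the odds ratio was 1.17 (0.76 to 1.85, exact adjusted p = 0.64). The other letters searched, which passed against neither class, were TGTGGT (RUNX), TGACGTCA (CRE), TGANTCA (AP-1), CAGGTG (E-box) and CTTTGAT (TCF and LEF), and the cores of NRF1 and NF-kB, with STAT and YY1 given above. RUNX letters stood in 11.3% of windows under members and 13.8% under shared regions (exact unadjusted p = 0.032, adjusted p = 0.15). All motifs were read on both strands, and p-values were adjusted over 26 tests. Windows of 1 gene, and of gene pairs that start back to back, can overlap, so they are not independent. Only starts enter here, so the letters of the members away from starts were not analysed here.

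**Figure D4:**
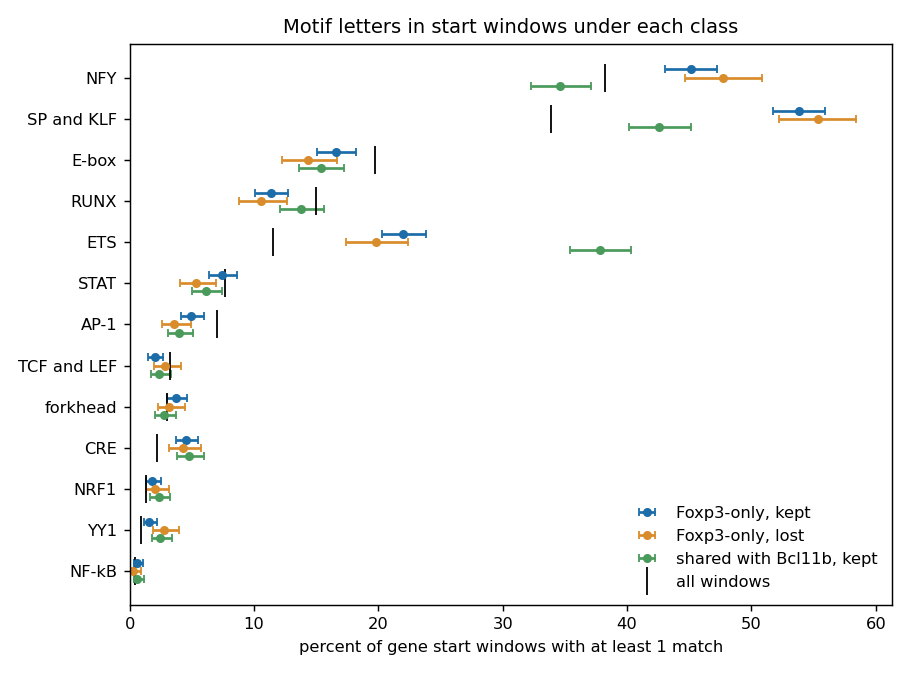
Percent of start windows with at least 1 match of each of 13 motifs, under kept Foxp3-only regions, lost Foxp3-only regions and kept regions shared with Bcl11b, with Wilson 95% intervals; the black line is the share over all windows. The ETS core is at 37.8% under shared regions, above both Foxp3-only classes, while the GC and CCAAT boxes are higher under both Foxp3-only classes than under shared regions.

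Members were spread over many genes with few at each. Within 100 kb of its centre, 5715 of the 5756 members (99.3%) had a nearest protein-coding gene, and these were 4488 genes, or 20.5% of the 21900 protein-coding genes. A single member was assigned to 3550 of these genes, 2 to 719, 3 to 168 and at least 4 to 51. Of the 4488 genes, 1019 (22.7%) also had a lost Foxp3-only region, 763 (17.0%) also had a kept shared region and 2941 (65.5%) had neither. The median distance from a member to the next member was 34.3 kb, and 952 members (16.5%) had another within 5 kb. A nearest gene is a position and not a measured target. At genes, lost means lost Foxp3-only regions, and shared means kept regions shared with Bcl11b. Foxp3 regions outside the 3 classes, such as the 1262 shared with Bcl11b and lost, were not assigned to genes.

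The genes with the most members were Itpk1, Runx2 and Tnrc6b, with 6 each. The 6 members of Itpk1, which encodes an inositol phosphate kinase, lay inside the gene in 2 groups, with 3 from 30.1 to 31.8 kb downstream of its start and 3 from 2.3 to 9.0 kb downstream, and Itpk1 had no lost and no shared region. Likewise all 6 members of Runx2, a Runt-family transcription factor gene, lay inside the gene, between chr17:44718162-44718455 and chr17:44766484-44766946, from 47.9 to 96.3 kb downstream of the nearest start. Tnrc6b carried 1 member at each of 2 starts and 1 lost region beside its 6 members. Among the 3 classes, Itpk1 and Runx2 thus had kept Foxp3-only regions alone, as did Il10rb and Tent5c with 5 each and Fem1c with 4.

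Il10rb encodes the beta chain of the IL-10 receptor, through which IL-10 signals in T cells. Its members were a pair inside the gene, at chr16:91405941-91406429 and chr16:91406548-91406767, and 3 regions from 19.95 to 26.8 kb away from the gene. The wider one of the pair, 489 bp long, was also listed as a Bcl11b region common to Treg and Tn cells, and common to Treg and KIKO cells. Tent5c, which encodes a non-canonical poly(A) polymerase, had 1 member inside the gene, 1 at 0.85 kb before its start and 3 between 13.5 and 58.7 kb from the gene. Fem1c encodes a substrate receptor of an E3 ubiquitin ligase.

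The other genes on the list of 10 with the most members had 5 each. Cflar, which encodes the apoptosis inhibitor c-FLIP, had all 5 inside the gene, the first of them at -0.085 kb from a start, beside 2 lost regions. Dgkz encodes a diacylglycerol kinase that dampens T cell receptor signals, and it had 4 members inside the gene and 1 at its edge, with 1 shared region near its start. Coro2a, a coronin gene, had 5 members and 2 lost regions, and Fnbp1, a formin-binding protein gene, had 5 members and 1 shared region. Hecw2, an E3 ubiquitin ligase gene, and Lpp, a LIM-domain gene, each had 5 members beside 1 lost region. The Lpp member 0.0985 kb before a start was also listed as a Bcl11b region common to Treg and Tn cells.

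Some of the best known Treg genes had 1 kept Foxp3-only region or none. Such counts are common, as 20.5% of all protein-coding genes had a member and 3550 of these 4488 genes had a single one. On the whole list of Treg signature genes 12 of 25 had a member. Foxp3 had none, and its single region of the 3 classes, at chrX:7583933-7584227, was kept and shared with Bcl11b. Ctla4, which encodes an inhibitory receptor, had no member beside 1 lost and 1 shared region, Tnfrsf18, which encodes GITR, had no member beside 3 shared regions, and Ikzf4, the gene of the Ikaros family factor Eos, had no region in any of the 3 classes. Il2ra, which encodes the alpha chain of the IL-2 receptor, had 1 member at chr2:11625983-11626258, 16.7 kb upstream of the gene, beside 1 lost and 4 shared regions. Ikzf2, the gene of Helios, had 1 member inside the gene at chr1:69670024-69670243 and 4 lost regions. Bcl11b itself had no member and 2 shared regions.

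Il10 and Icos each had a pair of members. Icos encodes a costimulatory receptor, and its members at chr1:60985140-60985489 and chr1:60990319-60990658 lay inside the gene with 1 lost and 1 shared region. Il10 had 1 member inside the gene, at chr1:131021570-131021789, and 1 at 16.7 kb from it, also with 1 lost and 1 shared region. Stat5b, which encodes a signal transducer of IL-2, had 2 members, 2 lost and 2 shared regions.

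Satb1, Foxp1, Foxo1, Bach2 and Gata3 each had both kept and lost Foxp3-only regions. Satb1, a chromatin organiser gene, had 3 members and 7 lost regions. Of its members 2 lay at starts, at chr17:51826599-51826818 and chr17:51833086-51833391, and 1 of the lost regions lay 0.65 kb upstream of the gene. Foxp1, a forkhead gene of naive T cells, had 3 members and 11 lost regions. Foxo1, another forkhead gene of naive T cells, had 2 members inside the gene and 2 lost regions upstream of it, one of them 0.29 kb before the start. Bach2, which encodes a repressor of effector genes, had 2 members, 1 lost and 1 shared region. Gata3, the gene of a T helper regulator, had 1 member and 1 lost region. Ifng, the cytokine gene of type 1 effector cells, had no member and 2 lost regions.

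**Figure D5:**
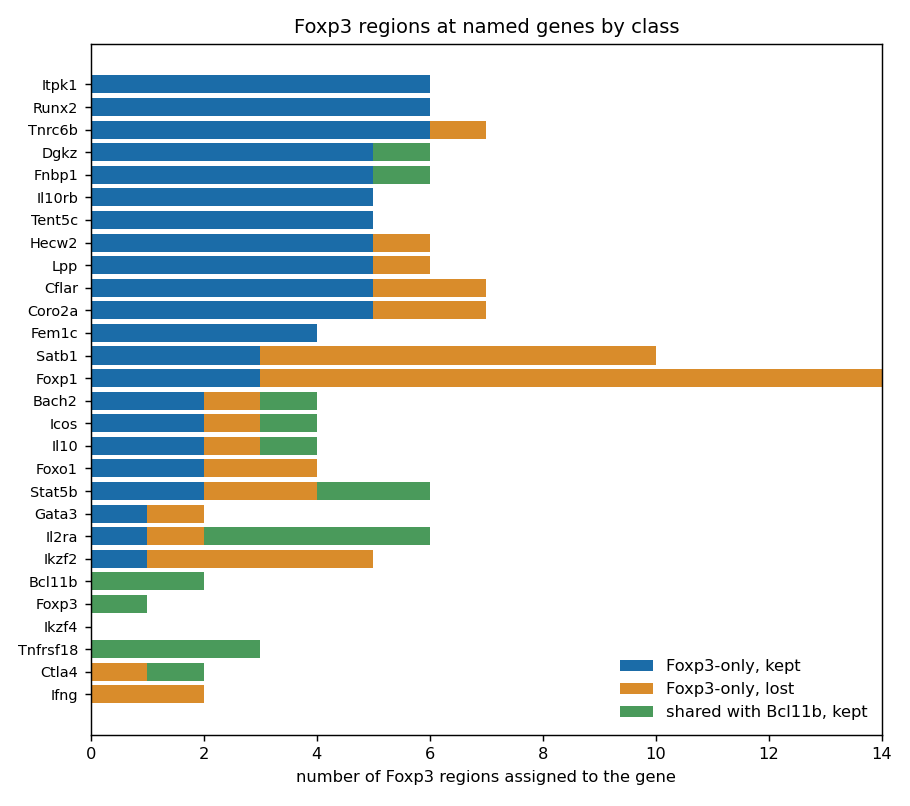
Number of Foxp3 regions assigned to each named gene, stacked by class: kept Foxp3-only, lost Foxp3-only and kept regions shared with Bcl11b. Of these classes, Itpk1, Runx2, Il10rb, Tent5c and Fem1c carry kept Foxp3-only regions alone, and Foxp3 and Tnfrsf18 carry kept shared regions alone. Satb1 and Foxp1 carry more lost than kept Foxp3-only regions. Foxp3 regions outside these classes are not drawn.

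The gene lists of T cell function had a member at a larger share of their genes than the 20.5% of all protein-coding genes. The same held for lost regions, which 13.1% of all protein-coding genes had, and for shared regions, which 11.3% had. A member was also assigned to more than 20.5% of the genes on the lists of chromatin regulators (57.7%), the proteasome (33.3%) and RNA splicing (30.6%). These shares are a description, with no test. Over all members and lost regions together 61.9% were members, which is the base for the counts of members and lost regions by list. On the lists of T cell function this share ran from 44.4% (Treg signature) to 69.0% (T helper effector). It was 64.5% for homing, 64.3% for AP-1 and the early response and 64.7% for chromatin regulators. Among Treg signature genes 12 of 25 had a member, 14 had a lost region and 13 a shared region, and the list held 16 members, 20 lost and 20 shared regions. Besides Icos and Il10 it included Entpd1, with 1 lost region and 2 members inside the gene, one of them at chr19:40660070-40660289 and 0.41 kb after a start. It also included Cd83, an activation marker gene, with 2 members beside 2 lost and 2 shared regions. Of 15 genes of inhibitory receptors and suppressive mediators 9 had a member, with 14 members and 11 lost regions. Pdcd1, which encodes PD-1, and Havcr2, which encodes TIM-3, had 2 members and 1 lost region each, and Pdcd1 also had 1 shared region.

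Of 20 T helper effector genes 9 had a member. The list held 20 members against 9 lost regions (69.0% members, beside 61.9% over all). Of the 20 members 1 lay within 1 kb of a listed start, against 43.0% of all members with start windows. The 5 members of Rora, which encodes a nuclear receptor of type 17 and tissue Treg cells, lay together between chr9:69289696-69290007 and chr9:69304574-69304849. Stat4, the signal transducer of IL-12, had 4 members inside the gene, 1 lost and 2 shared regions. Maf, a transcription factor gene linked to IL-10, had 3 members from 1.2 to 3.3 kb outside the gene and no lost or shared region. Irf4, an activation-induced factor gene, had 3 members and 4 lost regions.

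Of 23 genes of naive cells and the T lineage 15 had a member, with 33 members and 36 lost regions. Foxp1 and Satb1 made up 6 of these members and 18 of these lost regions. Tcf12, which encodes an E protein, had 4 members, 2 of them 0.25 and 0.028 kb after a start, 1 shared region and no lost region. Both members at the start were also listed for Bcl11b, the first as common to Treg and KIKO cells and the second as common to Treg and Tn cells. Klf2, which encodes a factor of cell trafficking and quiescence, had 3 members from 1.0 to 15.3 kb outside the gene and no lost or shared region. Of 21 homing genes 10 had a member, with 20 members and 11 lost regions. Ccr8, the receptor gene of tissue Treg cells, and Selplg, which encodes the selectin ligand PSGL-1, had 3 members and 1 lost region each. Gpr15, a gut homing receptor gene, had 3 members, no lost region and 1 shared region, and Cxcr4 had 3 members, 1 lost and 2 shared regions.

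Genes of T cell signalling also carried members. Of 26 genes of T cell receptor signalling 13 had a member, with 22 members and 27 lost regions. Ptprc, which encodes CD45, had 3 members and 3 lost regions, and Sla, an adaptor gene, had 3 members and no lost or shared region. Cd3e had 2 members outside the gene. Lcp2, which encodes SLP-76, had 2 members, one of them 0.13 kb after the start, 1 lost region and 1 shared region. Of 20 genes of the NF-kB and NFAT families 13 had a member, with 20 members and 14 lost regions. Nfatc2 had 4 members inside the gene and 2 lost regions, and Nfatc1 had 2 and 2. Tnfaip3, which encodes the NF-kB inhibitor A20, had 2 and 1, and Bcl3 had 2 members and no lost region. Tnfaip3 and Bcl3 also had 1 shared region each. Of 19 genes of the IL-2 and STAT5 pathway 13 had a member, with 17 members, 12 lost and 25 shared regions. Socs1, a feedback inhibitor gene, had 3 members and 2 shared regions. Il7r, the IL-7 receptor gene, had 2 members, one of them 0.056 kb after the start, 1 lost region and 1 shared region. Of 20 genes of AP-1 and the early response 11 had a member, with 18 members and 10 lost regions. Fosb and Fosl2 had 3 members each beside 2 and 1 lost regions. Dusp5, a phosphatase gene, had 3 members and 1 lost region, and Fos had 2 members and 1 lost region. Fosb and Dusp5 also had 1 shared region each, and Fos had 2.

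The share of members near starts differed between the lists, which is given as a description. Over all members with start windows 43.0% lay within 1 kb of a start. Of 14 members at proteasome genes 10 did, as did 9 of 12 at RNA splicing genes, against 2 of 16 at Treg signature genes. At genes of chromatin regulators 10 of 22 did (45.5%), close to the share over all members. The start could be that of any gene and not only of the assigned one. Icos, Il10 and Cd83, with 2 members each, had no listed start of their own, nor had Psmc3 and U2af2. Members were assigned to 12 of 36 proteasome genes, with 1 at the start of Psma5, 1 at that of Psma7, 2 at Psma3, one of them at its start, and 2 at Psmc3. Of 36 RNA splicing genes 11 had a member, Hnrnpm with 2 and Sf3a1, U2af1 and U2af2 with 1 each. Of 26 chromatin regulator genes 15 had a member, with 22 members and 12 lost regions. Arid1a, which encodes a subunit of the BAF remodeller, had 3 members inside the gene, from 25.5 to 46.9 kb downstream of its start. It also had 2 lost regions and 1 shared region. Eed, a PRC2 gene, had 2 members at its start and 2 lost regions. Dnmt1, the maintenance DNA methyltransferase gene, had 1 of its 2 members at the start. Tet2, which encodes a methylcytosine dioxygenase, had 2 members and 1 lost region. The Arid1a member at 46.9 kb was also listed as a Bcl11b region common to Treg and Tn cells.

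Members were assigned to 12 of 59 ribosomal protein genes (20.3%), among them Rpl7, Rpl7a, Rpl11 and Rpl12 with 1 each, and to 4 of 46 mitochondrial respiratory chain genes (8.70%), which were Ndufv1, Ndufs4, Cox7c and Cox7a2 with 1 each. Counted over gene bodies with 10 kb on either end, where 1 region can count for several genes, these were 21 ribosomal protein genes and 14 respiratory chain genes, and RNA splicing genes with a member were 18. The Ndufv1 member was also listed as a Bcl11b region common to Treg and KIKO cells. Marker genes of other cells are set against the 20.5% of all protein-coding genes with a member. A member was assigned to 1 of 10 B cell marker genes, Cd79a, to 0 of 12 myeloid marker genes, to 2 of 12 CD8 T and NK marker genes, Eomes and Prf1 (16.7%), and to 0 of 12 neural genes. Over the widened gene bodies these were 3 B cell, 2 myeloid and 1 neural gene. The share of all protein-coding genes with a member was not taken over widened bodies. The 20.5% is therefore no base for counts made in that way. The Cd79a member lay 0.20 kb outside the gene and 4.57 kb from its start.

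Outside the comparison with Foxp3, Bcl11b was listed at few of the members. The Tn and KIKO comparisons also hold Bcl11b of WT Treg cells, by which the rule parted members from shared regions. The gap between these classes is thus partly fixed by the rule, and it was not tested. Of the 5756 members, 385 (6.69%) were listed as Bcl11b regions of Tn cells, 271 of them as common to Treg and Tn cells and 116 as specific to Tn cells, so that 2 stood in both. Among the lost regions 114 (3.21%) were listed for Tn cells, 38 of them as Tn-specific, and among shared regions 1568 (55.0%), 23 of them as Tn-specific. Bcl11b of KIKO cells was listed at 87 members (1.51%), against 0.59% of lost and 28.0% of shared regions. In all, 420 members (7.30%) were listed for Bcl11b in the Tn or KIKO comparison, against 3.58% of lost and 60.8% of shared regions. The 420 include 313 members (5.44%) that these comparisons list for Bcl11b of WT Treg cells, although the comparison with Foxp3 lists them for Foxp3 alone. The lists conflict at those regions, and without them the odds ratio for nearness to starts was 1.40 against lost regions and 0.67 against shared regions.

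The 116 members listed as Tn-specific for Bcl11b, of which 2 also stood in the list common to Treg and Tn cells, made up 16.0% of the 727 Tn-specific Bcl11b regions. Lost regions made up 5.23% of that list and shared regions 3.16%, while members were 26.1% of all regions of the series. These shares depend on the rule too, since that list sets Tn cells against the WT Treg Bcl11b regions by which the rule chose members. Of the 113 Tn-specific members with start windows, 63 lay within 1 kb of a start (55.8%, 46.6 to 64.6), as did 173 of 266 members that were common to Treg and Tn Bcl11b (65.0%, 59.1 to 70.5). Members not listed for Tn Bcl11b had 41.7% (40.3 to 43.0). At genes of the lists above, the Tn-specific members were those at Klf2 (chr8:72303488-72304029), Lef1 (chr3:131111977-131112531), a T lineage factor gene, Mta2 (chr19:8942324-8942681), a gene of the NuRD corepressor complex, and Rpl12. The 3 members at Klf2, Lef1 and Mta2 were 542, 555 and 358 bp wide.

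The distance to Bcl11b regions of WT Treg cells was close to that of lost regions. The median distance to the nearest one was 27.0 kb for members and 26.2 kb for lost regions, and 28.1% of members (27.0 to 29.3) and 29.6% of lost regions (28.1 to 31.1) had one within 10 kb. These shares were not tested.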

How the data were processed

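ChIP-seq of Foxp3 and Bcl11b in mouse CD4+ T cells was deposited by the authors as 12 lists of regions, 3 for each of 4 pairwise comparisons, with chromosome, start and end and no other value. The submitters' processing notes name mm10 and the tools HOMER 4.10.1, deepTools, SAMtools 1.3, HISAT2 2.1.0, cutadapt 1.12, Trim Galore 0.4.2 and FastQC. Settings, peak threshold, the rule for common and specific and any pooling of replicates were not given in the sources used. No list is named in the description of the third WT Treg Bcl11b replicate, and the list shared by Bcl11b and Foxp3 is missing from that of WT Foxp3 replicate 2. The depth per library is unknown, and no value per replicate was analysed here.

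The 127 rows that repeated a region were dropped, and regions were matched by identical coordinates. Gene positions were those of RefSeq on GRCm38.p6, which shares its coordinates with mm10, and 21900 genes were protein-coding. Starts came from its start windows, which cover 17492 of these genes (79.9%). A region was assigned to the nearest protein-coding gene within 100 kb of its centre. Shares have Wilson 95% intervals. Two-sided Fisher's exact tests compared the classes, each with a conditional odds ratio and exact 95% interval, and p-values were adjusted by Benjamini-Hochberg over 4 position tests and over 26 motif tests, with 0.05 as the threshold. Steps were tested on simulated data. Exons, UTRs and region sequence outside start windows were not used here.

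The members, gene lists, motifs and tests were chosen with earlier results of these data known. Named genes are a set of Treg and T lineage genes, the 10 genes with the most members, the 5 with the most members among genes without lost or shared regions, and the 4 with the most members on each list. Lef1, Mta2, Suz12, Srsf10, Rps21, Prpf3 and Tctn3 were named after their values were seen. Alternatives were other distances to a start, gene ends in place of starts, autosomes only, wide regions only, regions of 220 bp or of 276 bp only, matching by centres within 100 bp, every annotated gene, other assignment rules, other motif rules, and leaving out regions with conflicting lists. The software was Python 3.11.15 with scipy 1.17.1, pandas 2.3.3, numpy 2.4.6 and, for figures, matplotlib 3.10.9.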

Additional observations from a re-analysis of the deposited data

How the results depend on the processing

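Both differences in nearness to starts turned direction among regions of 276 bp alone, a setting added after seeing the data. There the odds ratio was 0.87 against lost regions and 1.09 against shared regions (exact adjusted p = 0.67 for each). Otherwise the difference between kept and lost Foxp3-only regions passed under the alternatives run (odds ratios 1.26 to 1.48) except among regions wider than 276 bp, where the odds ratio was 1.06 (0.87 to 1.31, exact adjusted p = 0.77). The cause was not tested. The last setting keeps 457 of 3438 lost regions. The difference from shared regions passed under each other alternative run. With regions wider than 276 bp alone, 1 motif in place of 0 was called against lost regions, the E-box (odds ratio 1.99, exact adjusted p = 0.027), and RUNX joined the calls against shared regions (odds ratio 0.70, exact adjusted p = 0.039). Assigning members to every gene whose body, widened by 10 kb at both ends, holds them, where 1 region can count for several genes, put members at 21 ribosomal protein genes, 14 respiratory chain genes, 18 RNA splicing genes, 3 B cell marker genes, 2 myeloid marker genes and 1 neural gene. The other counts by list stayed within 1.5 times. The share of all protein-coding genes was not taken under the widened rule, so its counts have no base. No paired analysis was possible because the lists hold 1 set of regions per group and no column per replicate, and for the same reason no replicate could be left out. Requiring 2 matches left some rare motifs without a finite odds ratio, and these values are left out. A stricter peak threshold could not be set without scores. Depth is unknown, so a region in no list may be unbound or undetected.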

Other observations

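On the X chromosome lay 165 members (2.87%, Wilson 95% interval 2.47 to 3.33) and 110 lost Foxp3-only regions (3.10%, 2.58 to 3.72), against 15 kept regions shared with Bcl11b (0.53%, 0.32 to 0.87). Bcl11b regions of WT Treg cells without Foxp3 also had few there, 8 of 2497 (0.32%, 0.16 to 0.63). The X chromosome holds 4.41% of the protein-coding genes of the RefSeq table. These shares were compared after they were seen and were not tested. The number of members per 100 protein-coding genes was 17.1 on X, 18.1 on chromosome 7, 33.2 on chromosome 10 and 32.7 on chromosome 1.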
